A study of Homo sapiens with 2 samples.

Results

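The proteasome genes of ACHN cells were followed across a knockdown of KIAA1429. They were chosen by name only, as the genes whose symbol is PSMA, PSMB, PSMC, PSMD, PSME, PSMF or PSMG followed by a number, and 46 of the 12014 listed genes met this rule. ACHN is an established human renal cell carcinoma line. The cells had been infected with lentivirus carrying an shRNA against KIAA1429 (labelled ACHN_sh, here shKIAA1429) or a negative control shRNA (labelled NC, here shNC), and both populations were then kept as stable lines under puromycin. KIAA1429, listed under the symbol VIRMA, is a scaffold of the complex that writes N6-methyladenosine on mRNA. The labels speak of a knockout, whereas the methods of the study describe an shRNA knockdown, and which of its KIAA1429 shRNAs was sequenced is not given in the sources used here. Poly(A) RNA was sequenced from 1 library per group, so no difference has a replicate check and no test was run. Libraries of whole cultures do not tell a lower level in every cell from a high level in fewer cells.

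The proteasome degrades proteins that carry ubiquitin chains. Its core particle is a barrel of 2 outer alpha rings and 2 inner beta rings, and the active sites face the inside of the barrel. The regulatory particle caps the barrel. Its base holds a ring of ATPases that unfold the substrate, and its lid removes the ubiquitin. Inducible catalytic subunits replace the constitutive ones in the immunoproteasome, which interferon raises and which makes peptides for antigen presentation. Other caps, the activators of the PA28 family and PA200, bind the same barrel, and dedicated chaperones assemble it.

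The deposited values were FPKM, fragment numbers scaled to the length of the transcript and the size of the library, and levels of different genes can be compared on this scale. Differences are given as the log2 of (FPKM + 1) in the shKIAA1429 library over (FPKM + 1) in the shNC library, a scale that understates differences of weakly expressed genes. The depth behind each value is unknown, because numbers of reads cannot be read back from these values. The listed genes summed to 283046 FPKM with shNC and 249409 FPKM with shKIAA1429, and mitochondrial genes took 42.2% and 34.6% of these sums. For VIRMA the values were 3.92 FPKM (shNC) and 3.22 FPKM (shKIAA1429), or 82.1% of the control. At equal FPKM sums it was 93.2%, while 18.9% of the 10702 genes whose mean FPKM reached 1 had a lower log2 difference than VIRMA (-0.22), so the RNA of the targeted gene was only weakly lower in the shKIAA1429 library. By RT-qPCR and western blot, the paper reports significantly lower KIAA1429 mRNA and protein in ACHN cells with its KIAA1429 shRNAs. All 7 genes of the renal epithelial list (PAX8, PAX2, KRT8, KRT18, KRT19, MET and VIM) were at 31.4 FPKM or more in both libraries. Of the 10 markers of leukocytes, endothelium and fibroblasts, 3 had a row, and the highest of their values was 3.87 FPKM, for CD68 with shNC. PTPRC, PECAM1 and DCN had no row.

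Proteasome genes were well expressed in both libraries. Their FPKM summed to 1039 with shNC and to 1110 with shKIAA1429. By mean FPKM, 42 of the 46 stood above the median of the listed genes, 5.02 FPKM. The most abundant was PSMB3, a structural subunit of the beta ring, at 88.0 FPKM with shNC and 106 FPKM with shKIAA1429. PSMB4, another structural beta subunit, followed at 92.6 and 88.7 FPKM, and the activator gene PSME1 at 67.4 and 63.7 FPKM. The weakest was PSMG4, which encodes a chaperone of core assembly, at 0.535 and 0.633 FPKM. It was the member that did not reach a mean FPKM of 1 and was left out of the counts of differences, which thus cover 45 members. PSMA8 and PSMB11, known as the alpha and beta subunits of testis and thymus, had no row.

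**Figure D1:**
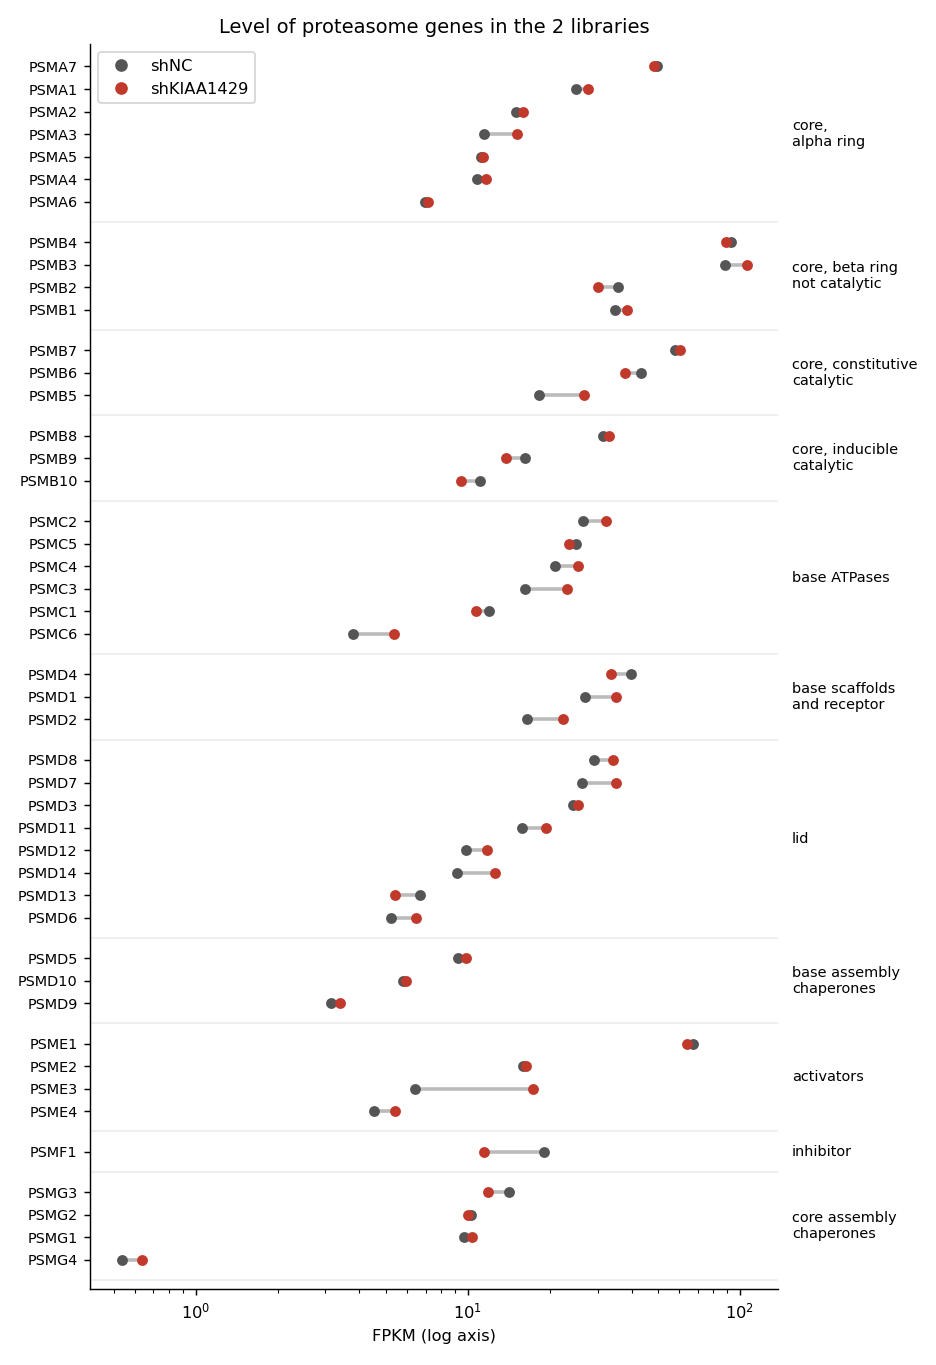
FPKM of each of the 46 proteasome genes (log axis) with shNC (grey) and shKIAA1429 (red), 1 library each, in blocks by role. Most points of a gene lie close together, whereas PSME3 is at 6.38 and 17.3 FPKM and PSMF1 at 19.1 and 11.5 FPKM.

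Most proteasome genes differed little between the libraries. Of the 45 members, 42 had a log2 difference of at most 0.5 in either direction, 93.3% against 84% of all 10702 genes whose mean FPKM reached 1. PSME3 and PSMB5 were higher by more than 0.5 with shKIAA1429, 2 of 45 members (4.44%) against 9.9% of all genes, and PSMF1 was lower by more than 0.5, 1 of 45 (2.22%) against 6.12%. No member passed 1.5, the limit in the methods of the study, which 0.635% of all genes passed. The median over the members was 0.085 and that over all genes 0.058. A value below 0 was found for 14 members (31.1%) and for 42.7% of all genes. Bringing both libraries to an equal FPKM sum shifted the median of all genes upward by 0.18, and 8 members and 25.4% of all genes then lay below 0. The 6 that crossed were PSMA7, PSMB4, PSMC1, PSMC5, PSME1 and PSMG2, so the sign of these genes depends on the scaling. With equal sums taken without mitochondrial genes, all 6 stayed below 0. In that setting 14 members and 42.3% of all genes lay below 0. With the median of all genes set to 0 instead, 18 members lay below 0, among them PSMA5, PSMA6, PSMD10 and PSME2, which were above 0 as reported. These shares describe the 2 libraries, and with 1 library per group they carry no test.

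The largest difference belonged to PSME3, which encodes PA28-gamma, the nuclear activator that opens the core without ubiquitin or ATP. PSME3 (ENSG00000131467.10_2, chromosome 17 of GRCh37, 40976402 to 40995775, plus strand) was at 6.38 FPKM with shNC and 17.3 FPKM with shKIAA1429. That is 2.72 times the control level and a log2 difference of 1.31, rank 67 from the highest among the 10702 genes. With both libraries at an equal FPKM sum the difference was 1.58 and thus past 1.5. PSME1 and PSME2, which together form the interferon-inducible activator PA28 of the cytoplasm, were nearly level between the libraries. PSME1 was at 67.4 and 63.7 FPKM, a log2 difference of -0.081, and PSME2 at 16.0 and 16.3 FPKM, a difference of 0.026. PSME4, which encodes the activator PA200, was at 4.54 and 5.40 FPKM, a difference of 0.21. PSME3 made up 6.76% of the FPKM of the 4 activator genes with shNC and 16.9% with shKIAA1429, a share that no scaling of a library alters.

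The inhibitor PSMF1 was the member with the lowest difference. PSMF1 encodes PI31, which blocks the core in the test tube and also serves as an adaptor that carries proteasomes along the cell. The gene (ENSG00000125818.17_3, chromosome 20 of GRCh37, 1093906 to 1170059, plus strand) had 19.1 FPKM in the shNC library against 11.5 FPKM in the shKIAA1429 library. The latter was 60.3% of the former, a log2 difference of -0.68 and rank 304 from the lowest. The FPKM of PSMF1 was 2.99 times that of PSME3 with shNC and 0.665 times with shKIAA1429, so the gene with the higher level was PSMF1 in the one library and PSME3 in the other. Neither gene overlaps another listed gene on its strand, and each overlaps 1 on the other strand, BECN1 for PSME3 and TMEM74B for PSMF1.

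**Figure D2:**
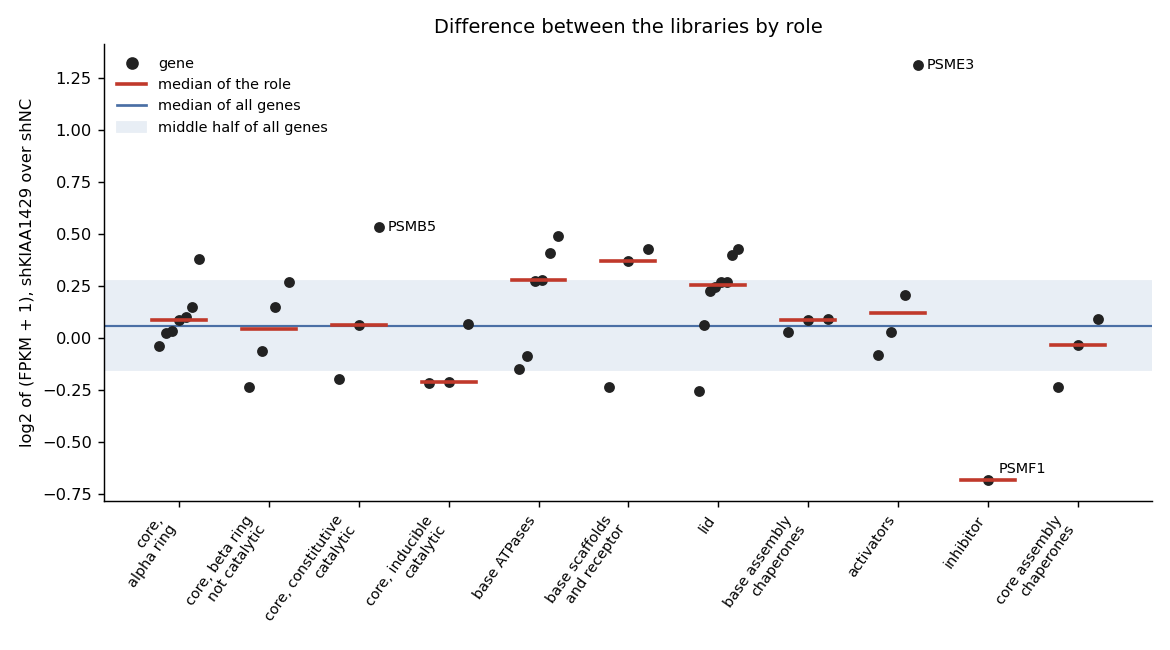
Log2 of (FPKM + 1) with shKIAA1429 over shNC for the 45 proteasome genes that passed the filter (black points), with the median of each role (red) and the median (blue line) and interquartile range (band) of all 10702 genes. PSME3 at 1.31 and PSMF1 at -0.68 stand outside the other members, and the medians of the base and lid roles lie between 0.25 and 0.37.

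Within the core particle, the alpha ring gates the entry. The summed FPKM of its 7 listed genes with shKIAA1429 was 106% of that with shNC, and the median log2 difference was 0.084. The highest was PSMA3, from 11.4 to 15.2 FPKM (0.38), and the lowest PSMA7, the most abundant alpha gene, from 49.8 to 48.5 FPKM (-0.039). PSMA6, the alpha gene with the lowest level, was at 6.94 and 7.13 FPKM. It overlaps AL121594.3 on the same strand, and the 2 genes summed had a log2 difference of 0.067. PSMA1, PSMA2, PSMA4 and PSMA5 lay between 0.024 and 0.15.

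The structural genes of the beta ring lay on both sides of 0. PSMB3 and PSMB1 were higher with shKIAA1429, with log2 differences of 0.27 and 0.15, and PSMB2 and PSMB4 were lower, with -0.24 and -0.062, the latter 0.12 at equal FPKM sums. PSMB1 was at 34.7 and 38.6 FPKM, and PSMB2 at 35.6 and 30.0 FPKM. The summed level of the 4 genes was 251 FPKM (shNC) and 263 FPKM (shKIAA1429).

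The active sites of the core lie in 3 beta subunits, each of which has an inducible counterpart. PSMB5, which carries the chymotrypsin-like activity and is the main target of the drug bortezomib, was the constitutive gene with the largest difference. PSMB5 (ENSG00000100804.18_3, chromosome 14 of GRCh37, 23485752 to 23504439, minus strand) was at 18.2 FPKM with shNC and 26.8 FPKM with shKIAA1429, a log2 difference of 0.53. The value lies near the limit of 0.5 and became 0.47 when the median of all genes was set to 0. It was 0.73 at equal FPKM sums and 0.72 with the trend in GC content and transcript length removed. PSMB6, of the caspase-like activity, was lower at 43.4 and 37.8 FPKM (-0.20). PSMB7, of the trypsin-like activity, was at 57.7 and 60.3 FPKM (0.063). PSMB5 thus took 15.3% of the FPKM of the constitutive catalytic genes with shNC and 21.5% with shKIAA1429.

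The inducible catalytic genes were expressed in both libraries. PSMB8, the counterpart of PSMB5, was at 31.4 FPKM with shNC and 32.9 FPKM with shKIAA1429, a log2 difference of 0.066. PSMB9, the counterpart of PSMB6, was at 16.2 and 13.8 FPKM (-0.22). PSMB10, the counterpart of PSMB7, was at 11.1 and 9.44 FPKM (-0.22). Together they held 33.0% of the FPKM of the 6 catalytic genes with shNC and 31.0% with shKIAA1429. The pairs differed. The share of PSMB8 in the sum with PSMB5 was 63.3% with shNC and 55.1% with shKIAA1429. That of PSMB9 in the sum with PSMB6 was 27.2% and 26.7%, and that of PSMB10 in the sum with PSMB7 was 16.2% and 13.5%. PSMB8 and PSMB9 overlap on opposite strands of chromosome 6 and the libraries were strand-specific, but whether the counting used strand is not given in the sources used here. For PSMB10 together with AC040162.1, a gene that overlaps it in the same orientation, the log2 difference was -0.15.

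**Figure D3:**
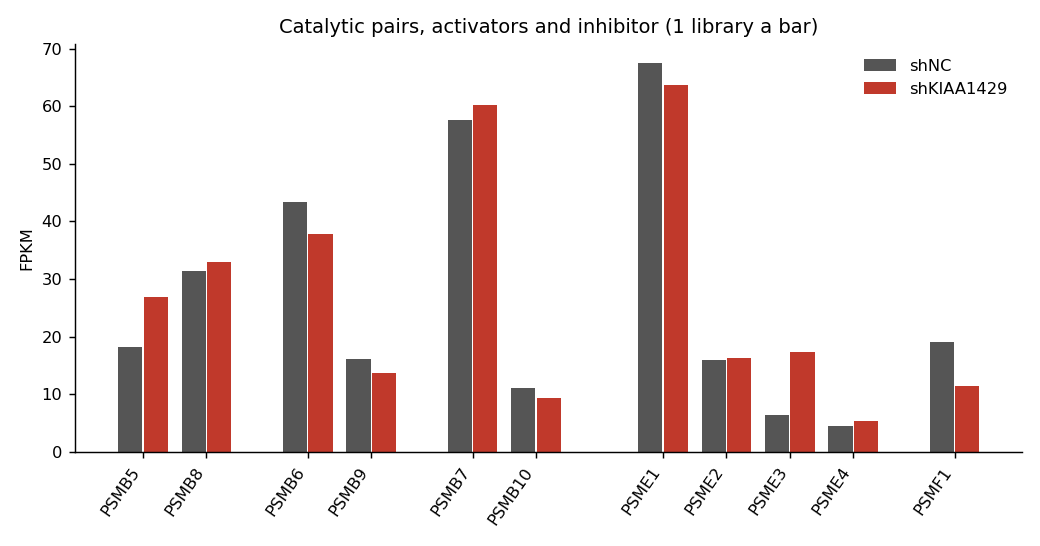
FPKM of the catalytic pairs (constitutive gene first), the 4 activators and the inhibitor PSMF1 with shNC (grey bars) and shKIAA1429 (red bars), 1 library a bar and no error bars. PSMB5 is at 18.2 and 26.8 FPKM beside PSMB8 at 31.4 and 32.9 FPKM, PSMF1 is above PSME3 with shNC, and PSME3 is above PSMF1 with shKIAA1429.

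Most genes of the regulatory particle were higher with shKIAA1429. Of its 17 genes, 13 lay above the median of all genes, and their median log2 difference was 0.27, against 0.063 and 9 of 17 for the core particle. The summed FPKM of the regulatory particle was 314 with shNC and 362 with shKIAA1429 (115% of the control), and that of the core particle 559 and 582 (104%). The regulatory genes thus had 0.562 times the summed FPKM of the core genes with shNC and 0.622 times with shKIAA1429, a ratio on which the scaling of a library has no bearing. No regulatory gene passed 0.5 in either direction as reported. At equal FPKM sums 6 of the 17 were above 0.5, as were 23.9% of all genes.

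The base holds the ATPases PSMC1 to PSMC6, which form a ring and pull the substrate into the core. Their median was 0.28. PSMC3 was the highest, from 16.2 to 23.2 FPKM (0.49), followed by PSMC6, the ATPase gene with the lowest level, from 3.79 to 5.36 FPKM (0.41). PSMC2 and PSMC4 were higher by 0.28 and 0.27. PSMC1 was the lowest, from 12.0 to 10.7 FPKM (-0.15), and PSMC5 was at 25.1 and 23.6 FPKM (-0.086), both of them slightly above 0 at equal FPKM sums. PSMC1 has 13 pseudogenes that GENCODE 29 names after it, the most of any member, so its reads may have been divided with near copies. In all, 12 members have such pseudogenes, 32 of them together.

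The large scaffolds of the base were among the members with the highest differences. PSMD2, which binds shuttle factors and the deubiquitinase USP14, was at 16.5 and 22.5 FPKM (0.43), and PSMD1 at 26.9 and 35.1 FPKM (0.37). PSMD4, a receptor for ubiquitin chains, was lower, at 39.7 and 33.6 FPKM (-0.24).

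In the lid, 7 of 8 genes lay above 0 and 1 below it, against 42.7% of all genes below 0. The median of the lid was 0.25. PSMD14, the metalloprotease that cuts ubiquitin chains from the substrate, was the highest, from 9.10 to 12.6 FPKM (0.43). PSMD7, its inactive partner, was at 26.4 and 35.1 FPKM (0.40). PSMD13 was the exception, at 6.67 FPKM with shNC and 5.43 FPKM with shKIAA1429 (-0.26). PSMD6, PSMD8, PSMD11 and PSMD12 lay between 0.23 and 0.27, and PSMD3 was at 0.061.

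The chaperones of assembly covered by the rule had log2 differences from -0.24 to 0.092. PSMD5, PSMD9 and PSMD10, which hold the ATPases of the base during assembly, were at 0.088, 0.085 and 0.030. Among the chaperones of the core, PSMG1 was at 9.67 and 10.4 FPKM (0.092) and PSMG2, its partner, at 10.3 and 10.1 FPKM (-0.034). PSMG3, which works with PSMG4, was lower, at 14.2 and 11.9 FPKM (-0.24).

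**Figure D4:**
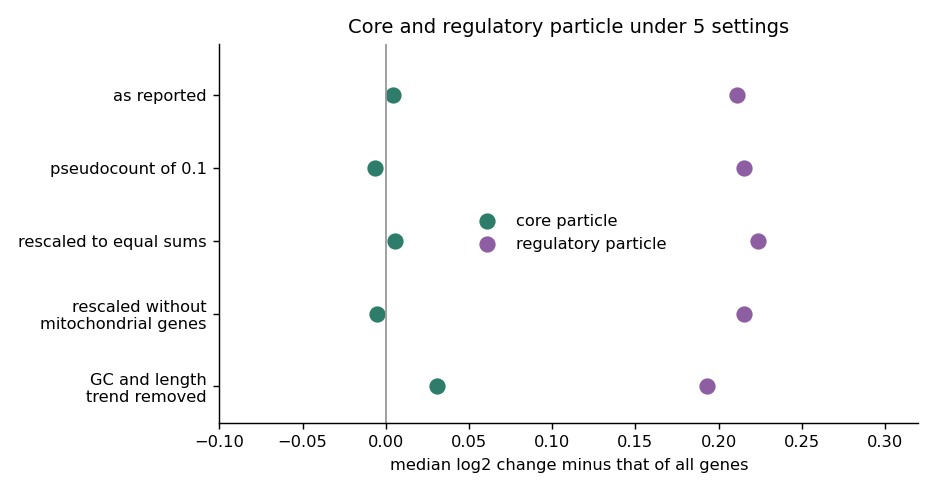
Median log2 difference of the core particle (green) and the regulatory particle (purple), each minus the median of all genes, under 5 settings of the analysis. The regulatory particle lies between 0.19 and 0.22 and the core particle between -0.0066 and 0.031.

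The regulatory particle lay above the core particle under each of the 5 settings plotted. The median of the regulatory particle exceeded that of all genes by 0.21 as reported, by 0.22 at equal FPKM sums and by 0.19 with the trend in GC content and transcript length removed. Over all 10644 genes with an annotated coding transcript, the log2 difference had a Spearman rho of 0.19 with the length of the longest coding transcript and of -0.30 with its GC content, and over the 45 members these were 0.18 and -0.28. These correlations run across genes of the same 2 libraries, and genes are not independent replicates.

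Levels within a complex of fixed make-up were not equal. In the alpha ring, where each protein occurs once per ring, the most abundant gene had 7.17 times the FPKM of the weakest with shNC and 6.79 times with shKIAA1429. For the ATPases these values were 6.99 and 6.04, and for the lid 5.58 and 6.47. The order of the 46 members by FPKM was much alike in the libraries, with a Spearman rho of 0.947, as over all 10702 genes (0.947).

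Other large complexes were set beside the proteasome on the same scale. The 8 genes of the TRiC chaperonin, which folds actin and tubulin, had a median log2 difference of 0.14. The 77 mitochondrial ribosomal proteins had a median of -0.021 and the 77 cytosolic ribosomal proteins one of -0.16. Of the latter, 70 lay below 0, against 14 of 45 proteasome genes and 42.7% of all genes. At equal FPKM sums the medians were 0.016 for the cytosolic and 0.16 for the mitochondrial ribosomal proteins, 0.27 for the proteasome and 0.33 for TRiC. With equal sums taken without mitochondrial genes, the ribosomal medians were -0.16 (cytosolic) and -0.017 (mitochondrial). The signs of both ribosomal groups thus depend on whether mitochondrial genes enter the scaling. The proteasome lay above both ribosomal groups under each scaling and with the trend in GC content and length removed. It lay below TRiC under each scaling and at 0.12 against 0.11 with the trend removed. The interquartile range of the proteasome was 0.33, that of all genes 0.42 and that of the cytosolic ribosomal proteins 0.18. None of these differences between complexes could be tested with 1 library per group.

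**Figure D5:**
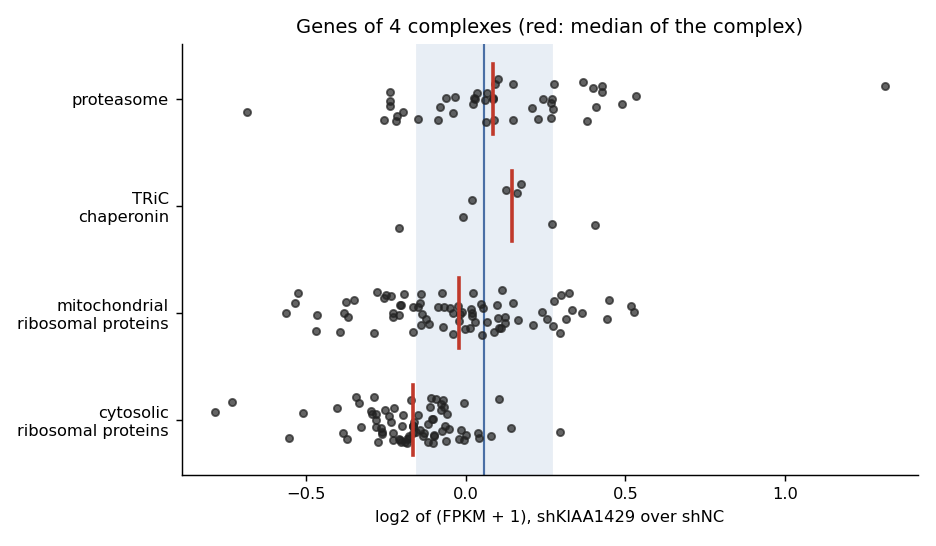
Log2 of (FPKM + 1) with shKIAA1429 over shNC for the genes of 4 complexes (points, spread vertically only for visibility), with the median of each complex (red) and the median (blue line) and interquartile range (band) of all genes. The proteasome median is 0.085 and that of the cytosolic ribosomal proteins -0.16, which is 0.016 at equal FPKM sums.

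Proteasome factors with names outside the rule were mostly higher with shKIAA1429. Of 12 such genes on the list, 11 had a row, with a median log2 difference of 0.23, and 9 were above 0. TXNL1 (-0.22) and PAAF1 (-0.025) were below 0, as were 42.7% of all genes. As reported, 0 passed 0.5 in either direction. At equal FPKM sums POMP (0.60) and ADRM1 (0.57) were above 0.5, as were 23.9% of all genes. POMP, the chaperone that completes the core, was at 54.9 FPKM with shNC and 73.4 FPKM with shKIAA1429 (0.41). ADRM1, a ubiquitin receptor of the base, was at 43.7 and 57.3 FPKM (0.38). SEM1, a small lid subunit, was higher by 0.23, and the proteasome deubiquitinases UCHL5 and USP14 were higher by 0.25 and 0.12.

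Genes that supply the proteasome with substrate lay on both sides of 0. Among the 6 genes of ubiquitin itself and its activating enzymes, 3 were below 0, as were 42.7% of all genes, and the median was -0.0035. RPS27A, which encodes ubiquitin fused to a ribosomal protein, was at 141 and 112 FPKM (-0.33). Of 12 genes of substrate delivery, with a median of 0.061, DDI2 passed 0.5, from 2.20 to 3.55 FPKM (0.51), as did 9.9% of all genes upward. The value lies near the limit. It was 0.45 with the median of all genes set to 0, 0.37 with the trend in GC content and length removed, and 0.79 at equal FPKM sums. DDI2 is the protease that cuts NFE2L1, the transcription factor that restores proteasome genes when the proteasome is blocked, into its active form. NFE2L1 was level, at 18.7 FPKM with shNC and 18.5 FPKM with shKIAA1429. Its relative NFE2L2 was at 16.8 and 26.8 FPKM (0.64), the member of its list of 6 that passed 0.5.

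Promoters of proteasome genes were searched for the letters of sites of these regulators. The RefSeq table of promoters, windows of 300 bases from 250 before to 50 after the start of each gene on GRCh38.p14, held 40 of the 46 members, without PSMA7, PSMB1, PSMB6, PSMB7, PSMD4 and PSMG3. Both strands were read. The pattern TGACNNNGC, the core of the antioxidant response element that NFE2L1 and NFE2L2 bind, was found in 13 of 40 members (32.5%) and in 13.6% of all 27305 promoters. CCAAT, the letters bound by NFY, was in 18 of 40 (45.0%) and in 35.7% of all. A pattern of the interferon-stimulated response element, GAAA repeated after a gap of 2 bases, was in 6 of 40 (15.0%) and in 3.65% of all. Among the 8457 promoters of genes past the filter, the shares were 15.5% for TGACNNNGC, 36.8% for CCAAT and 2.72% for the interferon pattern. A match describes letters and is no evidence of binding. Members with TGACNNNGC had a median log2 difference of 0.088 (13 genes) and those without it 0.13 (26 genes), and for CCAAT the medians were 0.25 (18 genes) and 0.085 (21 genes). For the interferon pattern they were -0.062 (5 genes) and 0.18 (34 genes).

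The windows of 30 bases around the interferon pattern are shown because they include PSMB10, PSME1 and PSME2, genes of the inducible proteasome. The promoters of PSMB8 and PSMB9, the other inducible catalytic genes with a row, were searched as well and held no match to it. Each is written 5′ to 3′ on the strand of the gene, with the match in capitals. In PSME1 the match is on the opposite strand and lies 6 to 15 bases after the start.
PSMB10 (chr16:67936852-67936881, minus strand): gggtaaaggcGAAAGCGAAAgcaggaagta
PSME2 (chr14:24146619-24146648, minus strand): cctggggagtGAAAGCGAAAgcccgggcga
PSME1 (chr14:24136189-24136218, plus strand): gccctaccgcTTTCGCTTTCccttcgcggt
PSMG4 (chr6:3258904-3258933, plus strand): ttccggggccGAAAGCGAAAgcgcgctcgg
The matches in PSMA4 and PSMB4 read differently inside the gap. The 4 windows shown hold the same 10 letters on one strand or the other. Of these 4 genes, PSMB10 was at 84.9% of the control level, PSME1 at 94.5%, PSME2 at 102% and PSMG4 at 118%, the last at under 1 FPKM.

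For the 2 members above 0.5 and for PSMC3, the next in order, the CCAAT windows are shown. PSME3 has the letters on the opposite strand, 12 to 8 bases before its start, PSMB5 has them 164 to 160 bases before and PSMC3 114 to 110 bases before.
PSME3 (chr17:42833372-42833401, plus strand): aggagtctcggcgATTGGctgtgacgcagt
PSMB5 (chr14:23035368-23035397, minus strand): atcattattttacCCAATtttagaaggtgc
PSMC3 (chr11:47426537-47426566, minus strand): acgcgcgtgtcggCCAATagcggccccacc
CCAAT was also found in members that were lower as reported, PSMB2 (-0.24), PSMB9 (-0.22) and PSMC5 (-0.086). None of the 3 patterns was found in the window of PSMF1.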

How the data were processed

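The authors deposited 1 table per library with FPKM values per gene, which they had scaled to transcript length and library size. The submitters' processing notes name cutadapt 1.9, HISAT2 2.0.4 and StringTie 1.3.4d among other tools, without their roles, and the genome build is not given in the sources used here, but the gene identifiers and positions match GENCODE on GRCh37. The tables list protein-coding genes above 0.5 FPKM in at least 1 library. From these values the log2 ratio of FPKM + 1, shKIAA1429 over shNC, was computed, for 7 symbols on more than 1 row the row of highest mean was taken, and a mean FPKM of 1 or more was required (10702 genes). With 1 library per group no test was possible, and 0.5 and 1.5 on the log2 scale served as limits. Roles were assigned by hand. The members, lists, limits and alternatives were chosen with earlier results of these data known. The genes named are the catalytic and activator genes, the highest and lowest of each role, the 5 highest and 5 lowest differences, the extremes of level, members without a value, VIRMA, POMP, NFE2L1 and genes of other lists past 0.5. Some genes of these lists are not reported here. Further genes of a role or list were named after their values were seen. Transcript length, GC content and pseudogene names came from GENCODE 29, matched by Ensembl identifier. A planned comparison of protein sequences was not made, and protein sequences were not used here. Of the steps, only the log2 ratio was run on simulated data. The changes put in were set by the same formula, so their recovery was fixed in advance. The search for overlapping genes was checked on made-up genes. Computation used pandas 2.3.3, SciPy 1.17.1 and NumPy 2.4.6 under Python 3.11.15, with matplotlib 3.10.9 for the plots.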

Additional observations from a re-analysis of the deposited data

How the results depend on the processing

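Rescaling each library to a sum of 1000000 raised the median of all genes by 0.18 and that of the members from 0.085 to 0.27, with 9 of 45 members above 0.5 (23.9% of all genes), 1 past 1.5 (PSME3) and 8 below 0 (25.4% of all genes). The medians by role became 0.27 for the alpha ring, 0.23 for the structural, 0.25 for the constitutive and -0.050 for the inducible beta genes, 0.46 for the ATPases, 0.56 for the scaffolds and receptor, 0.45 for the lid, 0.27 for the base chaperones, 0.31 for the activators, -0.54 for PSMF1 and 0.14 for the core chaperones. The distance of the members' median to that of all genes stayed between 0.021 and 0.058 under the 9 alternatives. After centring, 1 member (PSME3) and 7.64% of all genes were above 0.5. A limit of 1 in place of 1.5 was passed by 1 member, PSME3. The shares of all genes past 1 as reported and past 1.5 at equal FPKM sums were not computed. With the trend in GC content and length removed, an alternative chosen after seeing the data, 4 of 45 members and 8.75% of all genes were above 0.5, and the medians of the constitutive beta genes, the inducible beta genes and the core chaperones were 0.18, -0.058 and 0.12. The inducible median of -0.22 was -0.076 without overlapping genes, which leaves 2 genes, and -0.063 from summed FPKM, and that of the scaffolds and receptor was 0.13 from summed FPKM. PSMB8 against PSMB5 alone gave an inducible share of 63.3% with shNC and 55.1% with shKIAA1429. PSMF1 was below -0.5 and PSME3 above 0.5 under every alternative. Rescaling to the same sum without mitochondrial genes raised the median of all genes by 0.015. In that setting 14 members and 42.3% of all genes lay below 0, and 3 members and 13.7% of all genes above 0.5. The cause of these shifts was not tested beyond what each alternative changes by construction. No paired analysis was possible because each group holds a single library, which also prevents leaving one out. The depth of the libraries is unknown.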

Other observations

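The COP9 signalosome, which removes NEDD8 from cullin ubiquitin ligases and is built on the same plan as the proteasome lid, held larger differences than the lid. Of its 9 genes, 2 were above 0.5 and 1 below -0.5 on the log2 scale, against 0 of the 8 lid genes of the rule. Over all 10702 genes, 9.9% were above 0.5 and 6.12% below -0.5. The count for the lid depends on the scaling. At equal FPKM sums PSMD14 (0.63) and PSMD7 (0.59) of the lid were above 0.5, as was COPS8 (0.54) of the signalosome. COPS7A and COPS7B encode alternative versions of the same subunit. COPS7A was at 19.7 FPKM with shNC and 9.98 FPKM with shKIAA1429, a difference of -0.92, whereas COPS7B was at 3.05 and 6.98 FPKM, a difference of 0.98. COPS2 was at 6.37 and 9.81 FPKM (0.55). The other 6 genes lay between -0.28 and 0.33.

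The genes of class I antigen presentation, which the inducible proteasome serves, had a median of 0.0996 over the 12 of 13 that passed the filter. IRF1, an inducer of PSMB9, was at 3.64 and 6.21 FPKM (0.64).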
